A study of Homo sapiens with 4 samples.

Results

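Genes of NF-κB signaling and its inflammatory targets were examined in HEK293 cells that stably overexpress the phosphatase PRL-1. The group holds 6 of the 184 target assays of a qRT-PCR panel, chosen by gene symbol, with no threshold on a measured value. They are the kinase CHUK, the adaptor TRAF6, the transcription factor subunit NFKB2, the chemokine CCL5 and the adhesion molecules VCAM1 and SELE. All cells were HEK293, a human embryonic kidney cell line in long use, grown without a further treatment or time course. The HEK293-PRL-1 line was stably transfected with pcDNA4-PRL-1, and the HEK293-vector line with the same plasmid lacking an insert. The labels give 2 biological replicates of each. The letters a and b below are those of the data columns, which are not tied to the replicate numbers of the labels. Each group is a single stable line, so that the effect of PRL-1 and other differences between the lines cannot be told apart.

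NF-κB transcription factors are dimers held inactive in the cytoplasm until signals reach the IκB kinase (IKK) complex. In the canonical pathway, adaptors such as TRAF6 and RIPK1 engage the kinase MAP3K7 (TAK1) with its partners TAB1 and TAB2, and the IKK complex of CHUK (IKKα), IKBKB (IKKβ) and the regulatory subunit IKBKG (NEMO) then releases dimers such as RELA with NFKB1. In the alternative pathway the kinase MAP3K14 (NIK) acts through CHUK on the NFKB2 precursor. CCL5, VCAM1 and SELE are targets of NF-κB known from inflamed tissue, the last of these typical of activated endothelium.

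Each sample was measured as the threshold cycle (Ct) of TaqMan assays, where a lower Ct means more template and a Ct of 40 means not detected. Differences from the Ct of 18S ribosomal RNA in the same sample (ΔCt) were compared between the groups, 1 cycle being read as 1 on the log2 scale. The PRL-1 transcript itself did not serve as a check of the labels, since its assay (PTP4A1) was at 40 in all 4 samples. The median SD of ΔCt between the 2 samples of a group was 0.325 cycles in HEK293-vector and 0.185 cycles in HEK293-PRL-1. Raw 18S Ct was 13.9 and 14.0 in HEK293-vector and 14.2 and 14.1 in HEK293-PRL-1. Relative to 18S, the median log2 fold change over the 174 assays with a signal was 1.34, so that most of the panel was higher in HEK293-PRL-1. This shift depends on the reference. It was 0.79 relative to GAPDH, −0.85 relative to the median Ct of the 165 assays with a signal in every sample, and −1.04 relative to B2M. The references themselves differed in stability. Raw Ct had an SD of 0.113 cycles for 18S, 0.246 cycles for GAPDH and 1.28 cycles for B2M. The spread of B2M lay mostly between the groups, at 28.4 and 28.1 in HEK293-vector and 26.0 in each HEK293-PRL-1 sample. B2M itself was higher in HEK293-PRL-1 by 2.38 relative to 18S (limma adjusted p = 0.00167), which every value relative to B2M carries with its sign turned. The B2M fit gave every assay the same SE, 0.53, and its adjusted p values are too small. The other candidate reference on the plates is not reported here. Which reference follows the amount of mRNA was not tested, and changes are therefore also given under the other references.

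Of the 6 members, CHUK rose and NFKB2 fell in HEK293-PRL-1, CCL5 did not pass the test relative to 18S, and TRAF6, VCAM1 and SELE gave no signal in any sample. CHUK was 16.6-fold higher relative to 18S. NFKB2 was 1.84-fold lower. Both kept their direction and passed the threshold relative to 18S, GAPDH, the median Ct and, with the limit on its p values above, B2M. Of the 174 assays, 58.6% were called higher and 7.47% lower relative to 18S. The shares called higher were 49.4% with GAPDH, 25.9% with the median Ct and 12.6% with B2M, and those called lower 21.8%, 51.7% and 47.1%. Under all 4 references, 11.5% were called higher, among them CHUK, and 7.47% lower, among them NFKB2.

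**Figure D1:**
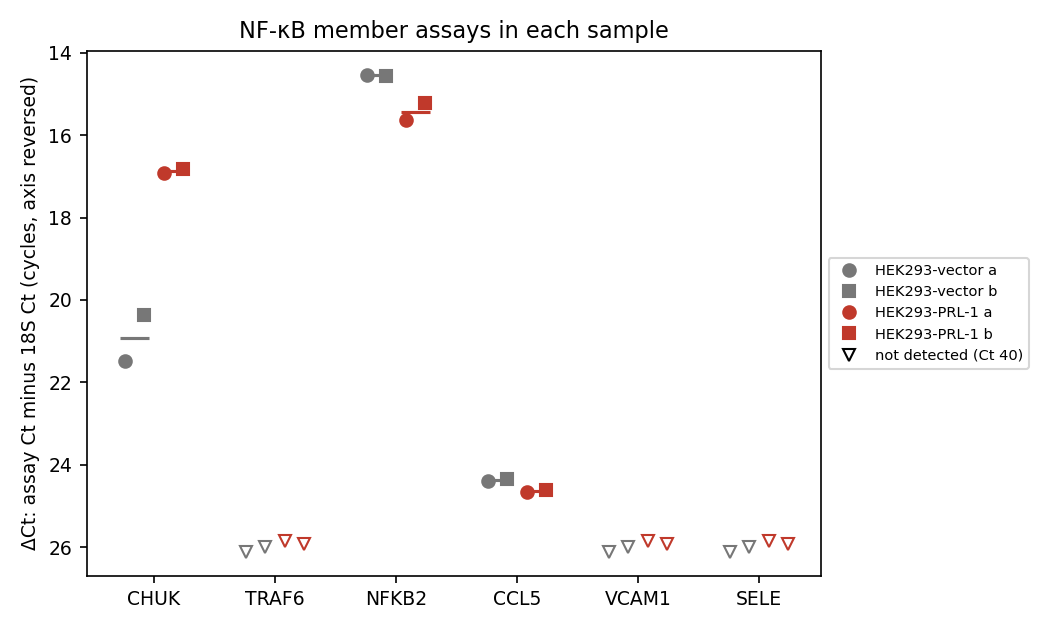
ΔCt (assay Ct minus 18S Ct, in cycles, axis reversed so that more template is higher) of the 6 member assays in each of the 4 samples, with group means as lines. CHUK is higher in both HEK293-PRL-1 samples by about 4 cycles, NFKB2 and CCL5 are slightly lower there, and open triangles mark TRAF6, VCAM1 and SELE, which stayed at 40 in each sample.

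CHUK encodes IKKα, the IκB kinase that canonical and alternative signaling share. The gene lies on chromosome 10 (100186319 to 100229596, GRCh38.p14), and it was measured with assay Hs00989507_m1 on plate B. Raw Ct was 35.4 and 34.4 in HEK293-vector, against 31.1 and 30.9 in HEK293-PRL-1. Both HEK293-PRL-1 samples were thus more than 3 cycles earlier than either HEK293-vector sample, and the HEK293-vector samples were the less alike. Such a separation upward was seen in 69% of the tested assays. Mean ΔCt fell from 20.9 ± 0.776 cycles in HEK293-vector to 16.9 ± 0.0743 cycles in HEK293-PRL-1 (SD, n = 2 each). This is a rise by 4.05 on the log2 scale with a standard error (SE) of 0.42 and a 95% interval of 2.93 to 5.17, which passed limma at a Benjamini-Hochberg adjusted p = 0.00174 over the 174 assays. It was the 15th highest of the 174. Relative to the other references the rise was smaller, at 3.50 with GAPDH (adjusted p = 0.00198), 1.86 with the median Ct (adjusted p = 0.00264) and 1.67 with B2M (adjusted p = 0.00369). Relative to 18S it ran from 3.50 to 4.60 when samples were left out one by one. Such a fit takes its error only from the group that keeps both samples. Without a HEK293-vector sample that is the closer pair, so that passing the threshold there says little. Tested on its own variance alone, as in the methods of the study, CHUK had an adjusted p of 0.0542.

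NFKB2 encodes p100, which is processed to the DNA-binding subunit p52 and also acts as an inhibitor of NF-κB. It lies on chromosome 10 as well (102394110 to 102402529) and was measured with assay Hs00174517_m1 on plate A. Raw Ct was 28.4 and 28.6 in HEK293-vector, against 29.8 and 29.3 in HEK293-PRL-1. The groups did not overlap, as was the case in this direction for 14.4% of the tested assays, and here the HEK293-PRL-1 samples were the less alike. Mean ΔCt went from 14.5 ± 0.0203 cycles in HEK293-vector to 15.4 ± 0.306 cycles in HEK293-PRL-1 (SD, n = 2 each). On the log2 scale this is a change of −0.88 with a standard error of 0.25 and a 95% interval of −1.55 to −0.21, at a limma adjusted p = 0.0329. It was the 15th lowest of the 174 and lay 2.22 below the panel median. The fall was larger with the other references, at −1.44 with GAPDH (adjusted p = 0.00319), −3.07 with the median Ct (adjusted p = 0.00140) and −3.26 with B2M. Relative to 18S, leaving out sample a of HEK293-PRL-1 gave −0.67, and without sample b the fall was larger, at −1.10. The call was lost in both fits, whose error came from the HEK293-vector pair alone. Tested on its own variance alone, NFKB2 had an adjusted p of 0.0903.

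**Figure D2:**
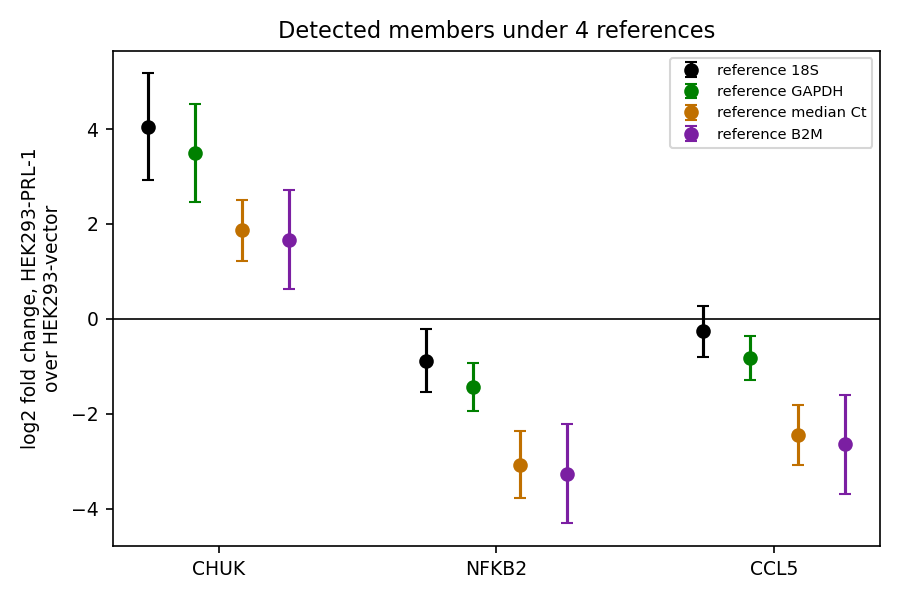
Log2 fold change of CHUK, NFKB2 and CCL5 (HEK293-PRL-1 over HEK293-vector) relative to 18S, GAPDH, the median Ct of 165 assays and B2M. Points are limma estimates and bars their 95% intervals, with 2 samples per group, and the bars with B2M are too narrow. CHUK stays above 0 and NFKB2 below 0 under each reference, while the interval of CCL5 includes 0 with 18S only.

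TRAF6 encodes a ubiquitin ligase that relays signals of interleukin-1 and Toll-like receptors to MAP3K7. The gene lies on chromosome 11 (36483769 to 36510272). Its assay, Hs00377558_m1, was at a Ct of 40 in all 4 samples. A transcript that reaches the threshold only at that cycle would be 25.8 to 26.1 cycles later than 18S in these samples, so that any TRAF6 signal lay below this level. No fold change is given, as both groups were at 40. TRAF6, VCAM1 and SELE are 3 of the 10 target assays that were at 40 throughout, 5.43% of the panel. As PTP4A1, the gene of the transfected phosphatase, was also among the 10, a Ct of 40 here is not read as an absence of the transcript.

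Around CHUK, NFKB2 and TRAF6, 10 further kinases, adaptors and subunits of the pathway were on the panel, and all 10 were detected in every sample. Relative to 18S, 7 of them rose, none fell, and 3 did not pass the test, where 58.6% of the tested assays were called higher and 7.47% lower. The count turned with the reference, with 4 higher and 2 lower relative to GAPDH, 2 higher and 7 lower relative to the median Ct, and 0 higher and 6 lower relative to B2M. Their median log2 fold change was 0.91, against 1.34 over all 174 assays. The size of the change differed widely within the pathway. The 3 of the TAK1 complex illustrate this. TAB2, an adaptor that brings MAP3K7 to ubiquitin chains, was at 33.1 and 32.5 cycles in HEK293-vector and at 29.7 and 29.3 cycles in HEK293-PRL-1, and it rose by 3.45 (SE 0.34, adjusted p = 0.00174). MAP3K7, the kinase itself, rose by 3.29 (SE 0.25, adjusted p = 0.00130). TAB1, the activating partner of the kinase, was at 28.2 and 28.5 cycles in HEK293-vector and at 29.4 and 28.8 cycles in HEK293-PRL-1, and its change of −0.58 did not pass the test relative to 18S (SE 0.27, adjusted p = 0.125). With the other references TAB1 was called lower, at −1.14 with GAPDH (adjusted p = 0.00993), −2.77 with the median Ct and −2.96 with B2M. RIPK1, the adaptor kinase of the TNF receptor, rose by 2.48 (SE 0.29, adjusted p = 0.00212). For MAP3K7, TAB2 and RIPK1 the change stayed above 0 with each reference, but none of the 3 passed with B2M, where it was 0.91, 1.07 and 0.10. RIPK1 was also without a call with the median Ct (0.29, adjusted p = 0.129).

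Relative to 18S and GAPDH, the other IKK genes changed less than CHUK. IKBKB, the kinase of canonical signaling, was at raw Ct 31.6 and 31.3 in HEK293-vector, against 30.9 and 30.4 in HEK293-PRL-1. It was higher by 0.98 relative to 18S (SE 0.28, adjusted p = 0.0352), but by 0.43 relative to GAPDH (adjusted p = 0.137), and it was lower with the median Ct (−1.21) and with B2M (−1.40). IKBKG, the regulatory subunit, was at raw Ct 29.3 and 29.6 in HEK293-vector, against 30.0 and 29.6 in HEK293-PRL-1, and its ΔCt ranges overlapped between the groups. It was at −0.17 on the log2 scale relative to 18S (95% interval −0.86 to 0.51, adjusted p = 0.618), and it was called lower with GAPDH (−0.73, adjusted p = 0.0334), the median Ct (−2.36) and B2M (−2.55). MAP3K14, the kinase of the alternative pathway, was higher by 0.76 relative to 18S (SE 0.22, adjusted p = 0.0357), without a call at 0.21 relative to GAPDH, and lower with the median Ct (−1.42) and B2M (−1.62). MAP3K8 (TPL2), a kinase bound by the NFKB1 precursor, was at 0.74 relative to 18S (95% interval −0.37 to 1.85, adjusted p = 0.193). The HEK293-vector samples decided this value, which was 0.20 without sample a of that group and 1.28 without sample b. MAP3K8 was called lower with the median Ct (−1.45) and B2M (−1.64).

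The NF-κB subunits differed in direction relative to 18S and GAPDH. With the median Ct and B2M all 3 lay below 0, NFKB2 the furthest. NFKB1, which encodes p105 and p50, was at raw Ct 32.6 and 32.0 in HEK293-vector, against 31.0 and 30.6 in HEK293-PRL-1. It rose by 1.70 relative to 18S (SE 0.33, adjusted p = 0.00987), close to the panel median. With GAPDH it was called higher at 1.15, with the median Ct it was called lower at −0.49 (adjusted p = 0.0464), and with B2M it was at −0.68 without a call. RELA, the p65 subunit with the transactivation domain, was at raw Ct 26.1 in each HEK293-vector sample, against 25.7 and 25.3 in HEK293-PRL-1. It was higher by 0.84 relative to 18S (SE 0.24, adjusted p = 0.0329), without a call at 0.29 with GAPDH (adjusted p = 0.188), and lower with the median Ct (−1.34) and B2M (−1.54). Relative to 18S the calls of RELA, IKBKB and MAP3K14 were lost without either HEK293-PRL-1 sample, that of MAP3K14 also without sample b of HEK293-vector, and that of NFKB1 without sample b of HEK293-PRL-1. RELA then ranged from 0.67 to 1.02, IKBKB from 0.79 to 1.17 and MAP3K14 from 0.64 to 0.89, and NFKB1 was at 1.55. On their own variance all 4 were without a call (adjusted p from 0.0690 to 0.118). NFKB2 was the only one of the 3 subunits measured that was lower relative to 18S.

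**Figure D3:**
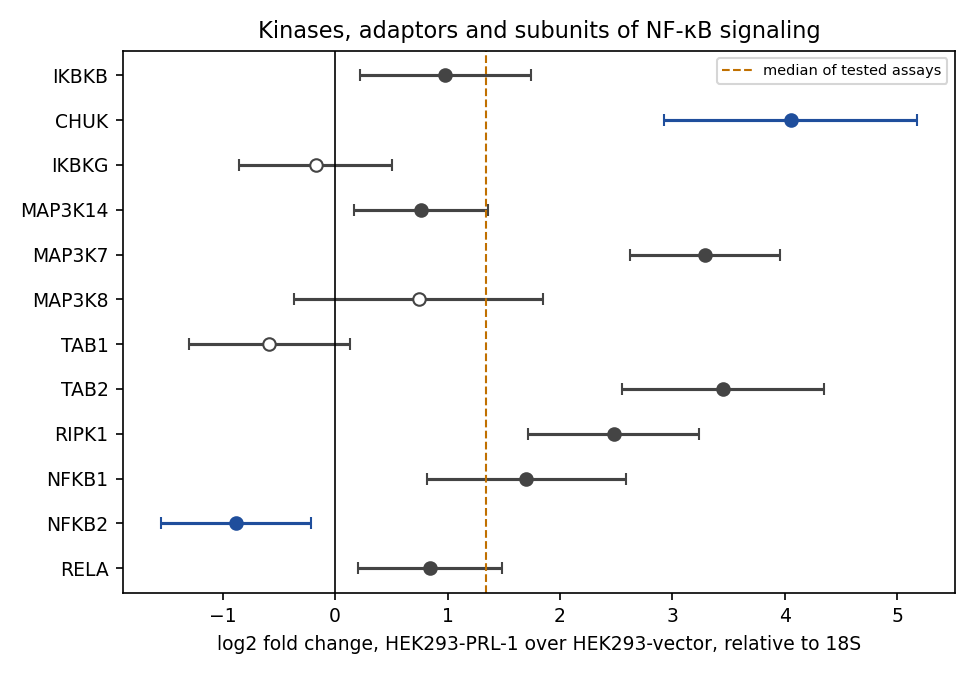
Log2 fold change (HEK293-PRL-1 over HEK293-vector, relative to 18S) of 12 kinases, adaptors and subunits, with 95% intervals from limma and 2 samples per group. Filled points passed an adjusted p of 0.05, blue marks CHUK and NFKB2, and the dashed line is the median of the 174 tested assays, 1.34. CHUK, MAP3K7, TAB2 and RIPK1 lie to the right of the dashed line with their intervals, and NFKB2, TAB1 and IKBKG to its left with theirs. IKBKB, RELA, MAP3K14 and MAP3K8 also lie to its left and NFKB1 to its right, with intervals that cross it.

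A comparison of 2 assays within the same sample needs no reference gene. The difference between their Ct values was taken for 8 pairs of pathway genes, where the position of a single value is not a level, as assays differ in efficiency, but its change between groups is a change of the ratio. CHUK over IKBKB was −3.74 and −3.11 cycles in HEK293-vector and −0.222 and −0.492 cycles in HEK293-PRL-1. The ratio of the 2 IKK kinases was therefore 8.39-fold higher in HEK293-PRL-1, or 3.07 on the log2 scale. CHUK over IKBKG rose from −5.41 ± 0.937 to −1.19 ± 0.210 cycles (SD, n = 2 each), by 4.22. CHUK over MAP3K14, the pair of kinases of the alternative pathway, was higher by 3.29. CHUK over NFKB2, the kinase and its substrate, differed most, at −6.94 and −5.82 cycles in HEK293-vector and −1.28 and −1.61 cycles in HEK293-PRL-1, a change of 4.93.

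The subunits were set against each other in the same way. RELA over NFKB2 was 2.27 and 2.45 cycles in HEK293-vector and 4.13 and 4.04 cycles in HEK293-PRL-1, a change of 1.73 with a spread of at most 0.123 cycles (SD) within a group. NFKB1 over NFKB2 was higher in HEK293-PRL-1 by 2.58. NFKB2 over MAP3K14 was lower by 1.65 on the log2 scale, from 2.74 ± 0.0615 to 1.09 ± 0.126 cycles (SD, n = 2 each). TAB2 over TAB1 was higher by 4.03, or 16.4-fold. In each of the 8 pairs the groups did not overlap, and the change exceeded the SD within either group. Over all pairs of the 165 assays detected in every sample, 89% were without overlap. The smallest two-sided exact permutation p of 2 against 2 samples is 0.333, which all 8 pairs reached, so that no pair can pass a threshold of 0.05.

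**Figure D4:**
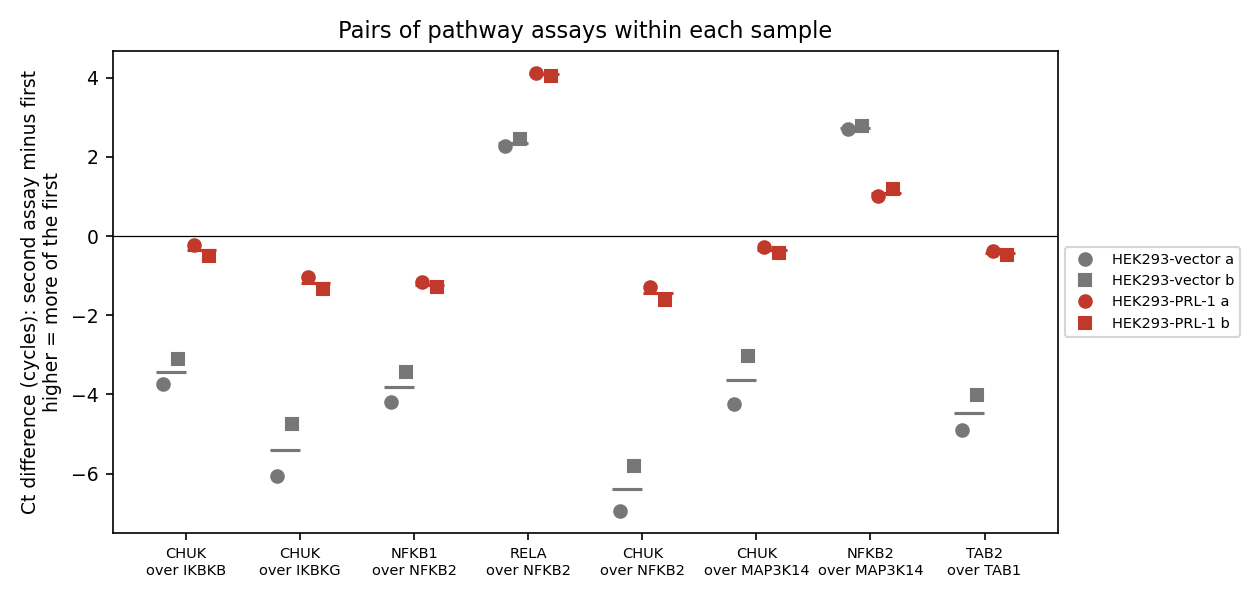
Difference in Ct (cycles, second assay minus first, so that higher means more of the first) for 8 pairs of pathway assays in each of the 4 samples, with group means as lines. In 7 pairs both HEK293-PRL-1 samples lie above both HEK293-vector samples, and for NFKB2 over MAP3K14 they lie below.

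The inflammatory targets were at or near the limit of detection. CCL5 (RANTES), a chemokine that attracts T cells and monocytes, lies on chromosome 17 (35871491 to 35880360) and was measured with assay Hs00174575_m1 on plate B. Raw Ct was 38.3 in each HEK293-vector sample, against 38.8 and 38.7 in HEK293-PRL-1, the latest 1.20 cycles short of 40. Mean ΔCt was 24.4 ± 0.0305 cycles in HEK293-vector, against 24.6 ± 0.0238 cycles in HEK293-PRL-1 (SD, n = 2 each). Both HEK293-PRL-1 samples were thus slightly lower, without overlap of the groups. The log2 fold change of −0.27 did not pass limma (SE 0.20, 95% interval −0.81 to 0.28, adjusted p = 0.323). On its own small variance CCL5 passed, with an adjusted p of 0.0468. It also passed as lower relative to GAPDH (−0.82, adjusted p = 0.0138), the median Ct (−2.45, adjusted p = 0.00169) and B2M (−2.65).

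VCAM1 and SELE encode vascular cell adhesion molecule and E-selectin, which catch leukocytes on activated endothelium. Their assays, Hs01003372_m1 and Hs00174057_m1, stayed at 40 in each of the 4 samples. VCAM1 lies on chromosome 1 (100719742 to 100739045) and SELE on the same chromosome (169722640 to 169734079). Both promoters are textbook examples of NF-κB binding, and a stretch of 100 bases of each, ending 21 bases before the start of the gene, is shown for the κB consensus that they carry. The bases are from RefSeq (GRCh38.p14), 5′ to 3′ on the strand of the gene, with matches to the consensus in capitals. The VCAM1 stretch is chr1:100719622-100719721 on the plus strand, and the SELE stretch is chr1:169734100-169734199 on the minus strand.
VCAM1: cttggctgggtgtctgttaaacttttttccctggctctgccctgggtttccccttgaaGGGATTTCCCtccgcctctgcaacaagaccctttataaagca
SELE: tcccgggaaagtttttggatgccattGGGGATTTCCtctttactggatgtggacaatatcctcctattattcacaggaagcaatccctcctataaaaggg

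The κB consensus was taken as GGGRNNYYCC, where R is A or G, Y is C or T and N is any base. Each of the 2 promoters held 1 match, searched on both strands over a window from 250 bases before to 50 after the start. Sequences off by 1 base, such as gggtttcccc in the VCAM1 stretch, were not counted or marked, so that this is not a count of κB sites. Of the 35116 such windows available, which do not cover every gene, 11.3% held at least 1. Among the other members, 2 of the 3 windows of NFKB2 held matches, and those of CHUK and TRAF6 held none. CCL5 had no entry. A match describes the letters alone. Of the 2 sequences shown, neither belongs to a gene with a signal in these cells, while NFKB2, with matches, was measured at a raw Ct under 30 in each sample.

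Of the 4 other targets on the panel, ICAM1, a ligand of leukocyte integrins, was at raw Ct 37.7 in each HEK293-vector sample and 37.9 in each HEK293-PRL-1 sample. Its log2 fold change was 0.00 relative to 18S (−0.0023, 95% interval −0.55 to 0.54, adjusted p = 0.992), and it was lower relative to GAPDH (−0.56, adjusted p = 0.0439), the median Ct (−2.19) and B2M (−2.38). MMP9, a matrix protease, was at 40 throughout. IL1A, an inflammatory cytokine, was at 40 and 39.2 in HEK293-vector, and at 37.3 and 37.4 in HEK293-PRL-1. Its rise of 2.40 relative to 18S (SE 0.37, adjusted p = 0.00464) was fitted with the undetected sample set to 40, and without that sample it was 1.94. IL1A was called higher with GAPDH at 1.84 (limma adjusted p = 0.00974), and was at 0.21 with the median Ct and 0.016 with B2M without a call. CCND1 (cyclin D1), which many pathways induce, rose by 1.91 relative to 18S (SE 0.29, adjusted p = 0.00464). It was called higher with GAPDH at 1.36 (limma adjusted p = 0.00872), and was at −0.28 with the median Ct and −0.47 with B2M. Thus 2 of the 3 tested targets rose relative to 18S, where 58.6% of all tested assays did. Both were also called higher with GAPDH, as were 49.4% of all tested assays, and neither was called with the median Ct or B2M.

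Integrin chains of the receptors that bind VCAM1 and ICAM1 were on the panel too. ITGA4 and ITGB1, which pair as the VCAM1 receptor VLA-4, rose by 3.44 and 3.36 relative to 18S (adjusted p = 0.00117 and 0.00193). Both were also called higher with GAPDH (2.89 and 2.80) and the median Ct (1.26 and 1.17), but not with B2M (1.06 and 0.98). ITGB2, a leukocyte chain of the ICAM1 receptors, was at raw Ct 39.0 and 37.5 in HEK293-vector and 38.1 and 40 in HEK293-PRL-1, with overlap of the groups. ITGB2 was not called relative to 18S (−0.62) or GAPDH (−1.17), and was called lower with the median Ct (−2.80) and B2M (−3.00). Markers of other cell types were few on this panel, which was not designed with defining markers of HEK293 cells. The endothelial marker PECAM1 was at 40 in both HEK293-vector samples and at 38.5 and 38.7 in HEK293-PRL-1. FLT1, a receptor of endothelial cells, rose by 2.55 relative to 18S (adjusted p = 0.00447) and by 2.00 relative to GAPDH (limma adjusted p = 0.00628). It was at 0.37 with the median Ct and 0.17 with B2M, without a call. The epithelial marker CDH1 (E-cadherin) had raw Ct values from 33.0 to 33.5 in all samples and was not called relative to 18S or GAPDH. It was called lower with the median Ct (−1.75, limma adjusted p = 0.00163) and with B2M (−1.94). The part of other cells in the levels of the targets was not tested.

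For each detected member, the assays with the most similar pattern over the 4 samples were sought among the other 164 detected in all of them, by the root mean square difference of values relative to 18S after centering each assay on its mean. CHUK was closest to PPP1R12A, the targeting subunit of myosin phosphatase, at 0.10 on the log2 scale, followed by ACTR2 of the Arp2/3 complex (0.19) and the Ras exchange factor SOS1 (0.20). NFKB2 was closest to the integrin chain ITGA3 and the adaptor SHC2 (0.11 each), followed by the collagen chain COL6A2 (0.15). CCL5, which hardly varied, was closest to CKB, CDKN1A and PDGFA, at 0.057 or less. Of the 6 assays closest to CHUK and NFKB2, those near CHUK had log2 fold changes from 3.85 to 4.06 and those near NFKB2 from −1.11 to −0.92. These are likenesses over 4 samples in 2 groups, in which the difference between the groups carries most of the pattern.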

How the data were processed

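RNA of 4 samples was treated with DNase and reverse transcribed with random hexamers by the authors, and amplified over 40 cycles with TaqMan assays on 2 plates per sample. The authors deposited the raw, not normalized Ct of each well in cycles, after setting any Ct of 40 or above to 40. A second deposited table holds the authors' own fold changes and was not used. Groups come from the sample titles. ΔCt was taken against the mean of the 2 wells of 18S. The 174 assays below 40 in at least 1 sample were fitted in R 4.3.3 with limma 3.58.1 (lmFit, eBayes), with a Ct of 40 kept as 40, Benjamini-Hochberg adjustment over all 174 and a threshold of 0.05. The fit had 2 residual and 2.46 prior degrees of freedom. A doubling per cycle was assumed. A Ct has no read depth, so the precision is limited by 2 samples per group.

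On simulated data (20 sets of 174 assays, 50 of them changed by 2 on the log2 scale), 84.7% of changes were found and 4.71% of calls were false. These sets had independent errors and changes of a single size and direction, without the shared error of a reference gene. They therefore do not give the share of false calls in these data. Alternatives were the references GAPDH, B2M and median Ct, 18S of the own plate, Ct of 40 as missing, no filter, a Ct under 35 in both samples of a group, own variance, a variance trend, a block by column letter, and each sample left out. The members, set by symbol, and the lists named in the text (pathway, targets, integrins, markers, assay pairs and the 3 assays nearest to each member) were chosen with earlier results of these data known. TAB1 and TAB2 were listed under older names (MAP3K7IP1, MAP3K7IP2). Promoter windows are from RefSeq. Figures were made in Python 3.11.15 with matplotlib 3.10.9.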

Additional observations from a re-analysis of the deposited data

How the results depend on the processing

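The reference moved the fold changes most, and own variance the calls of the members. CHUK and NFKB2 kept their direction and call with GAPDH, B2M and the median Ct, while CCL5 gained a call as lower, at −0.82, −2.65 and −2.45. With own variance the values are unchanged and CHUK (4.05, adjusted p = 0.0542) and NFKB2 (−0.88, adjusted p = 0.0903) lost their calls, while CCL5 (−0.27, adjusted p = 0.0468) gained one. With each sample left out, NFKB2 ranged from −1.10 to −0.67 and lost its call without either HEK293-PRL-1 sample, and CHUK kept its own. The lone sample of a group was assumed to vary like the other group, and without a HEK293-vector sample adjusted p rests on the closer HEK293-PRL-1 pair. With B2M every assay has the same error, which its own error adds to, so that its adjusted p values are too small. Of the 10 pathway assays, 7 were higher and 0 lower. This became 4 and 2 with GAPDH, 0 and 6 with B2M, 2 and 7 with the median Ct, 3 higher with own variance, and 3 to 7 higher with a sample left out. On the whole panel 102 were higher and 13 lower, 38 lower with GAPDH, 22 and 82 with B2M, 45 and 90 with the median Ct, 42 higher with own variance, and 74 to 108 higher and 7 to 19 lower with a sample left out.

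Directions reversed with B2M and the median Ct for IKBKB (−1.40, −1.21), NFKB1 (−0.68, −0.49), RELA (−1.54, −1.34) and MAP3K14 (−1.62, −1.42). The same held for MAP3K8 (−1.64, −1.45), CCND1 (−0.47, −0.28) and CDH1 (−1.94, −1.75). CDH1 was also at −0.11 with GAPDH. For PECAM1 these 2 references gave negative values too (−0.82, −0.63). Its HEK293-vector samples were both undetected and set to 40. The PECAM1 values are therefore lower bounds of the log2 fold change, which leave its direction under these references undecided. Relative to 18S, ICAM1 was at 0.0081 with 18S of the own plate and at −0.035 to 0.031 with a sample left out, and IKBKG at −0.38 to 0.026. ITGB2, at 40 in 1 sample, was at 0.38 with that value as missing and at −1.62 to 0.38 with a sample left out. The cause was not tested.

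The labels give replicate numbers 1 and 2 in both groups, and the columns carry letters not tied to them. A fit with the letters as a replicate block gave 4.05 for CHUK, −0.88 for NFKB2 and −0.27 for CCL5, changed the call of 0 listed genes, and called 104 assays higher and 13 lower. Differences between a and b in the 2 groups had a Pearson correlation of 0.038 over 165 assays, which are not independent. The 8 changes of assay pairs kept their sign with each sample left out, between 4.37 and 5.50 for CHUK over NFKB2 and between 2.75 and 3.39 for CHUK over IKBKB.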

Other observations

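CCL5 and ICAM1 were measured late but varied little. Of the 10 assays detected in all 4 samples with a mean raw Ct over 37, CCL5 had the smallest SD of ΔCt within groups, 0.0274 cycles, and ICAM1 the next, 0.0331 cycles. The median of the 10 was 0.324 cycles and the largest 1.55 cycles. For CHUK, detected earlier in each sample, it was 0.551 cycles, and for NFKB2 0.217 cycles. The cause of this small spread was not tested.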
